A study of Saccharomyces cerevisiae with 12 samples.

Results

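The proteasome genes of budding yeast were followed in wild-type cells that had been placed in medium already used by other yeast cultures. The set holds 33 genes, chosen by name from the annotation of the array: 14 genes of the core particle (the PRE and PUP genes and SCL1), 18 genes of the regulatory particle (the RPN and RPT genes) and RPN4, which is named as a subunit gene but encodes a transcription factor. Each has 1 probe among the 6388 gene probes of the array, and all 33 symbols matched a locus in the RefSeq gene table. The choice used gene names alone, though earlier results of these data were known when it was made.

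The 12 arrays fall into 6 groups of 2. Wild-type cells of strain BY4742, a MATalpha laboratory strain, doubled 2 times in used synthetic complete medium (2% glucose), from which an earlier culture had been removed by centrifugation and filtering. In set 1 the earlier culture was a cbf1 deletion strain, an npl3 deletion strain or the wild type, and in set 2 it was a bur2 deletion strain, a cho2 deletion strain or the wild type. CBF1 encodes a centromere-binding transcription factor, NPL3 an RNA-binding protein, BUR2 a cyclin whose partner kinase works in transcription elongation, and CHO2 an enzyme of phospholipid synthesis. The cells measured carried none of these deletions. The labels of set 1 name the measured strain DL009-wt and those of set 2 name it wild type, and the sources used here do not explain the first name. The comparisons ask whether the medium left by a deletion strain changes the expression of wild-type cells.

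Every sample was hybridized against a common reference, RNA from 1 large wild-type culture, and a value here is the log2 ratio of sample to reference. Array 1 of each group carried the sample in Cy3 and array 2 in Cy5, so the array number and the dye cannot be told apart. The series text speaks of separate cultures and the study's methods of dye-swapped measurement of a biological replicate. The sample titles of most pairs differ only in a suffix, a or b, as in a dye swap of the same replicate. The n below therefore counts arrays, and a p-value measures the spread between arrays, which may be technical. RNA came from whole cultures, so fewer cells that express a gene and less RNA per cell cannot be told apart.

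The proteasome is the protease that degrades proteins marked with ubiquitin, and in dividing yeast it removes cyclins, short-lived regulators and damaged proteins. Its core particle is a barrel of stacked rings, with alpha subunits in the outer rings and beta subunits, which hold the cutting sites, in the inner rings. The regulatory particle caps the barrel: its base holds the RPT ATPases that unfold the substrate, and its lid removes the ubiquitin. In yeast the transcription factor Rpn4 binds upstream of most proteasome genes and is itself destroyed by the proteasome, which ties the expression of the genes to the amount of active protease.

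The members were measured well on these arrays. All 66 member spots, 2 per gene, exceeded 2 times the local background in both channels on every array, against 74.8% to 84.7% of all gene spots, and none was saturated. The dimmest gene was PRE5, with a median signal of 3.32 times background, and the brightest was PRE9, with 66.3. Duplicate spots of a member differed by a median of 0.033 on the log2 scale and by at most 0.16. The mating-type markers fitted the strain label: the MATalpha genes MF(ALPHA)1, MF(ALPHA)2, STE3 and SAG1 had median signals of 37.0 to 210 times background, and the MATa genes MFA1, MFA2, STE2 and BAR1 of 1.21 to 2.13 times. The arrays differed in 2 other ways that return below. Median signals were higher in set 1 (254 to 507) than in set 2 (170 to 264), and the 2 arrays of wild-type medium in set 1 stood apart from each other in a list of 20 stress genes, with list medians of 0.10 and -0.41, and in a list of 20 ribosome biogenesis genes, with 0.14 and 0.40.

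**Figure D1:**
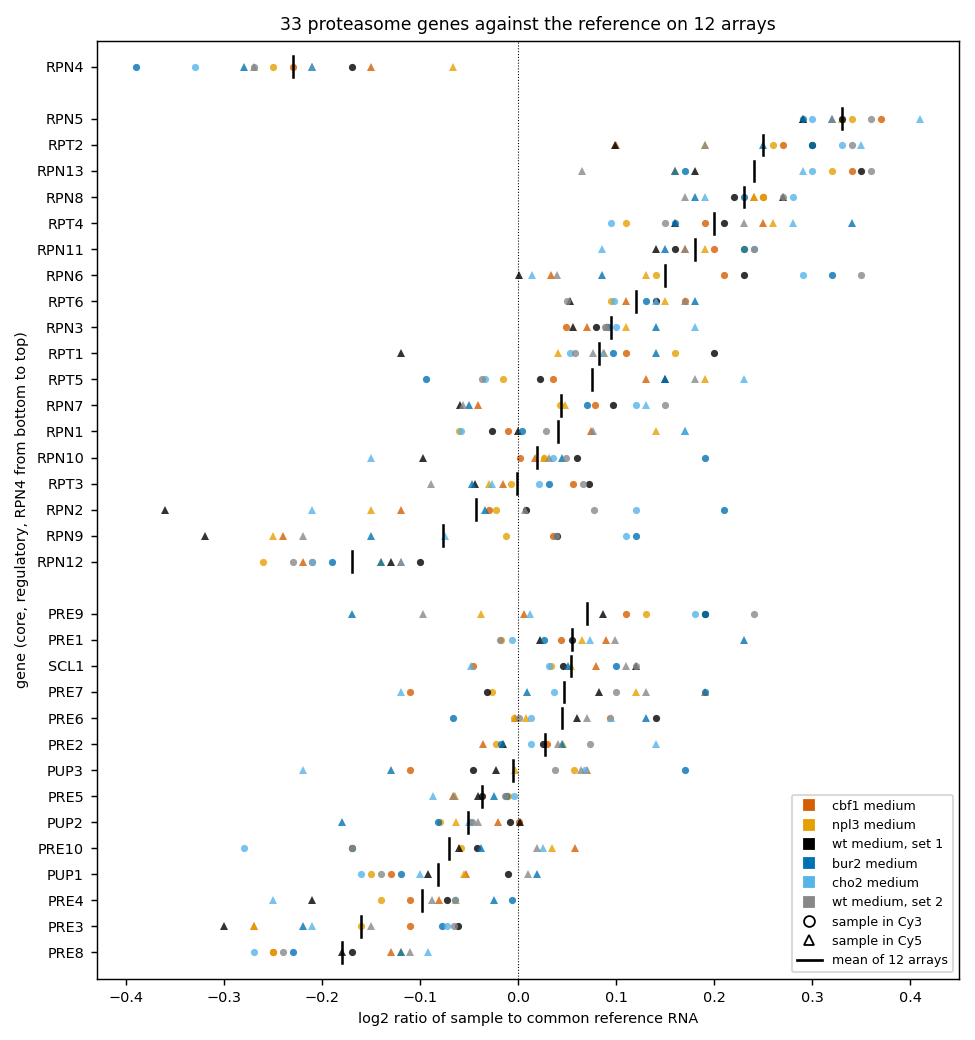
Log2 ratio of sample to common reference for each of the 33 proteasome genes on 12 arrays. Colours mark the medium, circles the arrays with the sample in Cy3 and triangles those with the sample in Cy5, and the black bar is the mean of the 12 arrays, which ran from -0.23 (RPN4) to 0.33 (RPN5).

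Against the reference, the median of the regulatory particle genes lay above that of the core particle genes on every array. The reference is 1 RNA pool whose own spread was not measured, so these levels are a description and carry no test. Of the 33 genes, 9 were above the reference on all 12 arrays, against 19.2% of all gene probes, and 6 were below it on all 12, against 15.1%. All 9 that lay above (RPN3, RPN5, RPN6, RPN8, RPN11, RPN13, RPT2, RPT4 and RPT6) belong to the regulatory particle. Of the 6 that lay below, 4 belong to the core (PRE3, PRE4, PRE5 and PRE8), and the others were RPN12 and RPN4. No core gene was above the reference on all 12 arrays. Some of these genes came near 0 on 1 array: RPN6 at 0.00029, PRE5 at -0.0048 and PRE4 at -0.0062. With arrays centred on the median alone, 5 members were above and 1 below on every array.

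The median of the 14 core genes was between -0.076 and 0.014 on the 12 arrays, and that of the 18 regulatory genes between 0.027 and 0.14. The core median was below the regulatory median on 12 of 12 arrays, by 0.13 ± 0.047 (SD, n = 12 arrays) on average. The gap was narrowest on array 2 of wild-type medium in set 1, at -0.046 for core minus regulatory. It was widest on array 2 of cho2 medium, at -0.20. In set 1 it was -0.17 and -0.093 in cbf1 medium, -0.12 and -0.15 in npl3 medium and -0.14 and -0.046 in wild-type medium. In set 2 it was -0.16 and -0.17 in bur2 medium, -0.11 and -0.20 in cho2 medium and -0.099 and -0.061 in wild-type medium. The deletion-strain media were thus wider than wild-type medium in set 2 and overlapped it in set 1, which was not tested. The nearest values in set 2 were -0.11 in cho2 medium and -0.099 in wild-type medium, beside a pooled SD within groups of 0.047. Counting RPN4 with the regulatory particle left the core lower on every array, by -0.020 to -0.19. The sign held in every alternative processing of the arrays, where the mean gap was -0.13 to -0.12. All 12 arrays share the same reference RNA and the same probes, so the 12 values are not separate measurements of it.

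**Figure D2:**
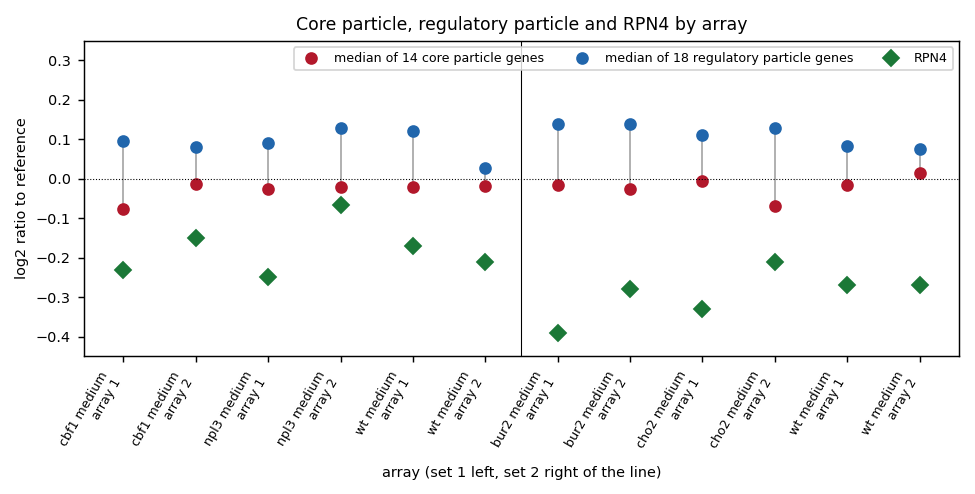
Median log2 ratio to the reference of the 14 core particle genes (red circles) and the 18 regulatory particle genes (blue circles), and the value of RPN4 (green diamonds), on each of the 12 arrays. A grey line joins the core and the regulatory median of an array, and the blue point is above the red one on 12 of 12 arrays.

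Within the core, the means of the alpha ring and the beta ring overlapped. The 7 alpha genes had 12-array means between -0.18 and 0.070, and the 7 beta genes between -0.16 and 0.055. PRE8, the lowest of the alpha genes, averaged -0.18 ± 0.065 (SD, n = 12 arrays), which is 0.883 of the reference. Its values were -0.25 and -0.13 in cbf1 medium, -0.25 and -0.12 in npl3 medium, -0.17 and -0.18 in wild-type medium of set 1, -0.23 and -0.12 in bur2 medium, -0.27 and -0.092 in cho2 medium and -0.24 and -0.11 in wild-type medium of set 2. Array 1 was the lower in every group except the wild-type medium of set 1, where both arrays were alike. PRE9, whose subunit is the only one of the core that yeast can lose and live, had the highest core mean, 0.070 ± 0.13, with values from -0.17 to 0.24.

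The 3 beta genes whose subunits cut proteins were at different levels relative to the reference. PRE3 encodes the caspase-like subunit, PUP1 the trypsin-like subunit and PRE2 the chymotrypsin-like subunit. PRE3 was below the reference on all 12 arrays, at -0.16 ± 0.088 (SD, n = 12 arrays), with values of -0.11 and -0.27 in cbf1 medium, -0.16 and -0.27 in npl3 medium, -0.061 and -0.30 in wild-type medium of set 1, -0.078 and -0.22 in bur2 medium, -0.073 and -0.21 in cho2 medium and -0.066 and -0.15 in wild-type medium of set 2. Its lower value was on array 2 in each group. PUP1 averaged -0.082 ± 0.063, between -0.16 and 0.019, and was below the reference on 10 of 12 arrays. PRE2 averaged 0.027 ± 0.049, between -0.036 and 0.14, and was above it on 8 of 12, but its mean was -0.012 with loess per print tip and -0.016 in the deposited log2 table. The values of PUP1 overlapped those of both other genes, and those of PRE2 and PRE3 did not overlap. PRE4, PRE7, PRE1 and PUP3 encode beta subunits without a cutting site. Their means were -0.098, 0.047, 0.055 and -0.0058.

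In the base, the 6 RPT ATPase genes had means from -0.0012 (RPT3) to 0.25 (RPT2). RPT2, whose protein opens the gate of the core, was above the reference on every array. It read 0.27 and 0.10 in cbf1 medium, 0.26 and 0.19 in npl3 medium, 0.30 and 0.099 in wild-type medium of set 1, 0.30 and 0.25 in bur2 medium, 0.33 and 0.35 in cho2 medium and 0.34 and 0.19 in wild-type medium of set 2. Its 12-array mean of 0.25 ± 0.087 (SD) is 1.19 of the reference. The 4 other base genes differed among themselves. RPN13, which encodes a ubiquitin receptor, averaged 0.24 ± 0.10 and was above the reference on all arrays, with a lowest value of 0.065 and a highest of 0.36. RPN10, which encodes another ubiquitin receptor, averaged 0.019 ± 0.083, and the scaffold genes RPN1 and RPN2 averaged 0.041 ± 0.082 and -0.043 ± 0.15.

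Among the 18 regulatory genes of the set, the 8 lid genes held both the highest and the lowest. RPN5, a scaffold subunit of the lid, had the highest mean of the 33 genes, 0.33 ± 0.036 (SD, n = 12 arrays), which is 1.26 of the reference. Its values were 0.37 and 0.29 in cbf1 medium, 0.34 and 0.33 in npl3 medium, 0.33 and 0.29 in wild-type medium of set 1, 0.29 and 0.32 in bur2 medium, 0.30 and 0.41 in cho2 medium and 0.36 and 0.32 in wild-type medium of set 2. They stayed between 0.29 and 0.41, and bur2 medium was the only deletion-strain medium whose arrays did not overlap those of its wild-type medium. RPN8 followed with 0.23 ± 0.035. RPN11, which encodes the enzyme that cleaves ubiquitin from the substrate and forms a pair with the RPN8 protein, followed with 0.18 ± 0.047. RPN12 and RPN9 were the lid genes with a mean below the reference. RPN12 averaged -0.17 ± 0.052, with a lowest value of -0.26, a median of -0.17 and a highest of -0.10. RPN9 averaged -0.077 and had the highest SD of the 33 genes, 0.15, with values from -0.32 to 0.12. RPN2 also had an SD of 0.15 to 2 digits, with a wider range, from -0.36 to 0.21.

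RPN4 was the lowest of the 33 genes against the reference. It read -0.23 and -0.15 in cbf1 medium, -0.25 and -0.067 in npl3 medium and -0.17 and -0.21 in wild-type medium of set 1. It read -0.39 and -0.28 in bur2 medium, -0.33 and -0.21 in cho2 medium and -0.27 and -0.27 in wild-type medium of set 2. All 12 values were below 0, with a mean of -0.23 ± 0.084 (SD), or 0.850 of the reference, and 5 of the 6 values of set 2 were below all 6 values of set 1. Over the 12 arrays, the correlation of RPN4 with each of the 32 subunit genes had a median r of -0.0655, from -0.646 to 0.671, as a description of arrays that share a dye pattern and a set. Pairs of core genes had a median r of -0.0246 over 91 pairs and pairs of regulatory genes of 0.196 over 153 pairs.

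No proteasome gene was called between the medium of a deletion strain and the wild-type medium of its set. In limma, with Benjamini-Hochberg adjustment over 6388 probes and a limit of 0.05, 0 of 33 members were called in cbf1, npl3, bur2 or cho2 medium, and so were 0 of all probes (0% in each comparison). At an unadjusted p under 0.05 the members numbered 0, 0, 1 and 2 in that order, and all probes 85, 181, 242 and 126. The median difference of the 33 genes lay between -0.00050 and 0.0084 in the 4 comparisons, beside -0.0016 to 0.00085 for all probes. The core genes had medians of -0.0076, -0.011, -0.023 and -0.019, in the order cbf1, npl3, bur2, cho2. The regulatory genes had medians of 0.012, 0.022, 0.0042 and 0.0089. The media of a set share their wild-type arrays, and the particles were not tested against each other. The intervals below rest on the spread between arrays, which may be technical, so they do not bound a difference between separate cultures. In each comparison the 95% interval of all 33 genes lay within 1.7-fold in either direction, and the interval bound farthest from 0 corresponded to 1.21-fold in cbf1 medium, 1.24-fold in npl3 medium, 1.21-fold in bur2 medium and 1.32-fold in cho2 medium. Of all probes, 6377 to 6386 also lay within 1.7-fold. The median standard error of a member's difference was 0.054.

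**Figure D3:**
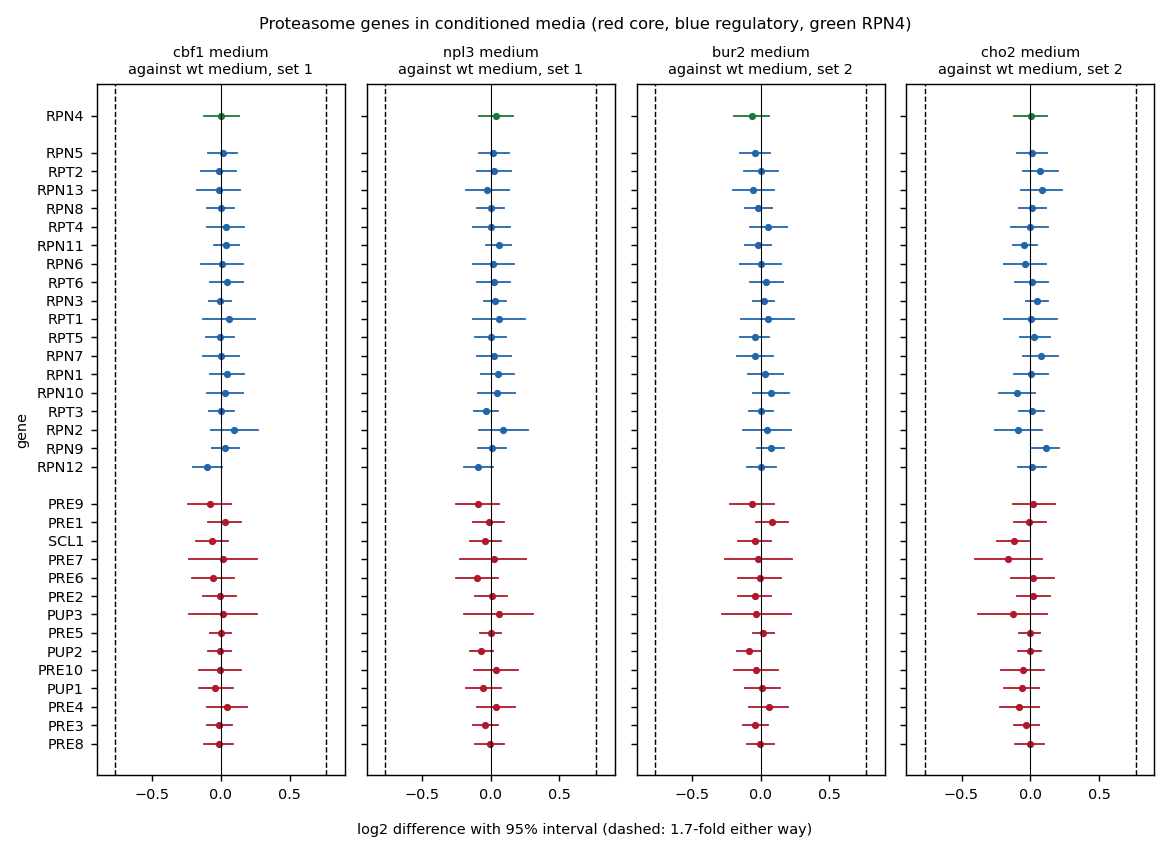
Log2 difference between each deletion-strain medium and the wild-type medium of its set for the 33 proteasome genes (points, core red, regulatory blue, RPN4 green), with the 95% interval of the limma fit as lines and 1.7-fold in either direction as dashed lines. No interval reaches a dashed line, and the one that comes nearest is that of PRE7 in cho2 medium, at -0.40.

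In cbf1 medium the smallest p belonged to RPN12, the lid gene. It read -0.21 and -0.22, against -0.10 and -0.13 in wild-type medium of set 1. Both arrays lay below both wild-type arrays, and the difference was -0.096 ± 0.044 (SE), which did not pass the limit. RPN2, SCL1 and PRE9 came next with differences of 0.10 ± 0.076, -0.065 ± 0.051 and -0.080 ± 0.068, and their arrays overlapped. In all, 1 of 33 genes lay above the wild-type arrays without overlap (RPN11), against 5.09% of all probes, and 1 lay below (RPN12), against 5.37%. These shares are near the background.

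In npl3 medium RPN12 again had the smallest p. It read -0.26 and -0.14, against the same wild-type arrays, a difference of -0.088 ± 0.044. The 2 comparisons of set 1 share those wild-type arrays, so the values stand side by side and do not support each other. PUP2, which encodes an alpha subunit, read -0.080 and -0.064 against -0.0085 and 0.0018, a difference of -0.068 ± 0.037. RPN11 and PRE6 had differences of 0.058 ± 0.039 and -0.099 ± 0.068. Without overlap, 3 genes lay above the wild-type arrays (RPN3, RPN11 and PUP3), against 7.37% of all probes, and 3 below (RPN12, PUP2 and PRE6), against 7.22%. The 2 wild-type arrays of set 1 are those that differed in stress and ribosome biogenesis genes, and the part of that difference in these values was not tested.

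In bur2 medium PUP2 had the smallest p. It read -0.082 and -0.18, against -0.047 and -0.041 in wild-type medium of set 2, and the difference was -0.085 ± 0.037 (limma adjusted p = 0.999). Both values lay below both wild-type values. RPN9, PRE1 and RPN10 had differences of 0.075 ± 0.043, 0.086 ± 0.052 and 0.077 ± 0.058, with overlapping arrays. Without overlap, 3 genes lay above (PRE4, RPN3 and RPT1), against 9.83% of all probes, and 4 below (PUP2, SCL1, RPN5 and RPN4), against 9.22%. RPN4 was among the latter, at -0.39 and -0.28 against -0.27 on both wild-type arrays, with a difference of -0.065 ± 0.054.

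In cho2 medium RPN9 and SCL1 had the smallest p. RPN9, a lid gene, read 0.11 and -0.075 against 0.038 and -0.22, a difference of 0.11 ± 0.043, and the arrays overlapped. SCL1, which encodes an alpha subunit, read 0.031 and -0.048 against 0.12 and 0.11, a difference of -0.12 ± 0.051, with both arrays below both wild-type arrays. RPN10 and PRE7 had differences of -0.099 ± 0.058 and -0.16 ± 0.11. Without overlap, 1 gene lay above (RPN3), against 7.61% of all probes, and 3 below (PRE7, PUP2 and SCL1), against 9.35%. For RPN4 the differences from the wild-type medium of its set were 0.0056, 0.036, -0.065 and 0.0012, in the order cbf1, npl3, bur2, cho2, each with a standard error of 0.054. The bur2 value kept its sign under all alternatives but came as near to 0 as -0.0022, and the others changed sign in some.

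The media of a set were also set against each other. Between cbf1 and npl3 medium, 0 members were called in either direction, beside 0 probes higher (0%) and 2 lower (0.0313%), and 0 members had an unadjusted p under 0.05 beside 96 probes. PUP2, RPN3, RPT3 and PRE1 had the smallest p, with differences of 0.061 ± 0.037, -0.037 ± 0.035, 0.039 ± 0.039 and 0.042 ± 0.052. Without overlap, 1 gene lay higher in cbf1 medium (PUP2), against 7.95% of all probes, and 2 lower (RPN3 and RPN10), against 6.73%. The farthest interval bound was 1.23-fold.

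Between bur2 and cho2 medium, 0 of 33 members and 0 of all probes (0%) were called, with 2 members and 532 probes at an unadjusted p under 0.05. RPN10, the ubiquitin receptor, read 0.19 and 0.045 in bur2 medium and 0.035 and -0.15 in cho2 medium. The arrays did not overlap, and the difference of 0.18 ± 0.058 is 1.13-fold (limma adjusted p = 0.520). PRE4, a beta gene, read -0.0062 and -0.025 against -0.065 and -0.25, a difference of 0.14 ± 0.062 (limma adjusted p = 0.597). PUP2 and RPN13 had differences of -0.079 ± 0.037 and -0.13 ± 0.066. Without overlap, 4 genes lay higher in bur2 medium (PRE4, SCL1, RPN10 and RPT1), against 15.5% of all probes, and 4 lower (PUP2, RPN7, RPN13 and RPT2), against 12.9%. The farthest interval bound was 1.30-fold.

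A difference between the sets in the mean effect of the deletion-strain media was called for no member in limma, where 0 of 33 members and 0 of all probes (0%) were called, and 0 members and 54 probes had an unadjusted p under 0.05. The smallest p was that of RPN12, with a difference between the effects of -0.099 ± 0.054 (limma adjusted p = 0.999). The 95% intervals of all 33 genes lay within 1.7-fold, with the farthest bound at 1.34-fold.

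More probes were called between the sets than between media, in a comparison of 6 arrays with 6 whose median standard error over members was 0.031, against 0.054 for the media with 2 arrays each. Set 1 against set 2 called 337 probes higher (5.28%) and 294 lower (4.60%), and of the 33 members 0 higher and 1 lower. Set, the strain name on the labels (DL009-wt or wild type), culture occasion, hybridization and signal level cannot be told apart. Median member signals per array were 26.6 to 38.8 times background in set 1 and 13.1 to 18.1 times in set 2. The member called was RPN9. Its arrays in set 1 read 0.035 and -0.24 in cbf1 medium, -0.013 and -0.25 in npl3 medium and 0.040 and -0.32 in wild-type medium. In set 2 they read 0.12 and -0.15 in bur2 medium, 0.11 and -0.075 in cho2 medium and 0.038 and -0.22 in wild-type medium. The difference of -0.095 ± 0.025 (limma adjusted p = 0.0475) is smaller than the gap between the arrays of every group, which was 0.19 to 0.36 and followed the dye, and the values of the sets overlapped. The call did not survive most other settings: the adjusted p of RPN9 rose above the limit in all but 2 of 20 alternatives, without any alternative changing its sign.

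RPN4 was the member with the next smallest p and just missed the limit. Its mean was -0.18 in set 1 and -0.29 in set 2, a difference of 0.11 ± 0.031 (limma adjusted p = 0.0560). The adjusted p passed the limit in 2 of 20 alternatives, which were duplicate spots kept apart (0.00375) and leaving out array 2 of wild-type medium in set 1 (0.0348). RPN2 and RPT2, of the base, had differences of -0.14 ± 0.044 and -0.091 ± 0.032 (limma adjusted p = 0.0800 and 0.106). The lowest RPN2 value, -0.36, was on array 2 of wild-type medium in set 1, which also held the lowest values of PRE3, RPN6, RPN7, RPN9, RPT1 and RPT2. Array 2 of cho2 medium held the lowest values of 7 other members and the highest values of 7. The median difference of the 33 genes between the sets was -0.0076, beside 0.0048 for all probes. No member separated the sets without overlap, against 1.83% of all probes that lay higher in set 1 and 1.49% that lay lower.

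**Figure D4:**
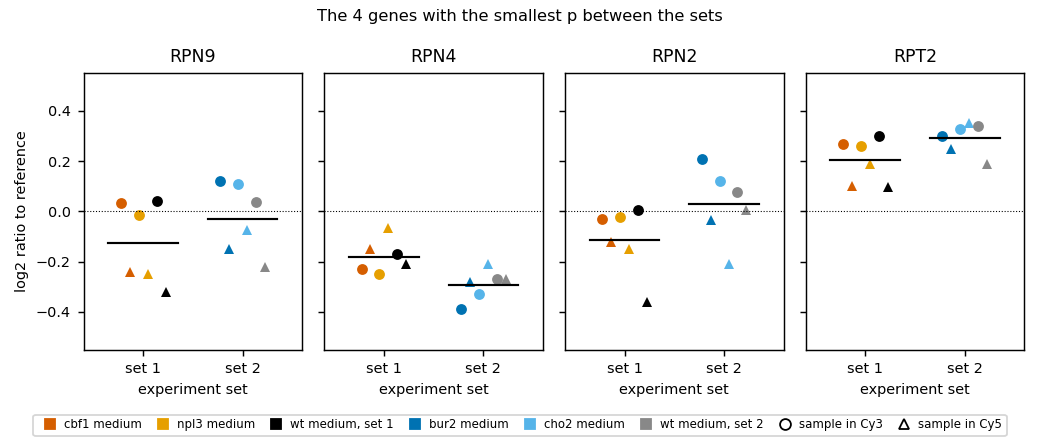
Log2 ratio to the reference of RPN9, RPN4, RPN2 and RPT2, the members with the smallest p between the sets, on the 6 arrays of set 1 and the 6 of set 2. Colours mark the medium, circles the sample in Cy3 and triangles the sample in Cy5, and the black bar is the mean of a set, which for RPN9 was -0.12 in set 1 and -0.030 in set 2.

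Lists outside the proteasome held more calls between the sets. Of 20 stress genes, 12 were called lower in set 1 and 0 higher, with a median difference of -0.37, and HSP26, a small heat shock chaperone, and YGP1, a cell wall glycoprotein, differed by -1.17 ± 0.14 and -0.26 ± 0.043 (limma adjusted p = 0.00276 and 0.0117). Of 20 ribosome biogenesis genes, 6 were called higher and 0 lower, with a median of 0.15, led by RLP7 and NUG1 at 0.22 ± 0.047 and 0.22 ± 0.048 (limma adjusted p = 0.0278 and 0.0287). Each of those 2 calls was lost in 10 of 20 alternatives, with adjusted p up to 0.0905 and 0.204. Array 1 of wild-type medium in set 1 did not share the shift of the list medians. Its stress median was 0.10, within the -0.0045 to 0.17 of the set 2 arrays. Its ribosome biogenesis median was 0.14, below the 0.19 to 0.24 of the set 2 arrays. The other arrays of set 1 had stress medians of -0.51 to -0.28 and ribosome biogenesis medians of 0.30 to 0.40. The part of the set differences in the proteasome values was not tested.

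Of the genes in 4 lists that work beside the proteasome, 2 were called between the sets, both lower in set 1. Over the 4 lists that share is near the 4.60% of all probes called lower. Among 9 genes of proteasome-bound factors, 2 were called lower in set 1 and 0 higher, with a list median of -0.038. They were ECM29, which encodes a protein that tethers the core to its cap, at -0.18 ± 0.035, and HUL5, which encodes a ubiquitin ligase bound to the proteasome, at -0.084 ± 0.022 (limma adjusted p = 0.0228 and 0.0468). Both kept their sign in all 20 alternatives, and the adjusted p passed the limit in 12 for ECM29 and in 5 for HUL5. Among 10 assembly chaperone genes 0 were called in either direction, and the smallest p were those of NAS2, at 0.11 ± 0.037, and ADD66, at 0.075 ± 0.031 (limma adjusted p = 0.0939 and 0.153). Among 13 ubiquitin pathway genes 0 were called, and UBI4, the polyubiquitin gene, and UBR1, the ligase of the N-end rule, read -0.085 ± 0.024 and -0.14 ± 0.042 (limma adjusted p = 0.0607 and 0.0686). Among 4 genes of regulators of RPN4 transcription 0 were called, and YAP1 and PDR3 read -0.10 ± 0.040 and -0.092 ± 0.038 (limma adjusted p = 0.133 and 0.151), none of them called. In the 20 alternatives, NAS2 passed the limit in 4, UBR1 in 3, YAP1 and PDR3 in 2 each and ADD66 and UBI4 in 1 each. In the 4 comparisons of a deletion-strain medium with wild-type medium, 0 genes of these 4 lists were called. Their list medians were between -0.044 and 0.047.

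Against the reference, some genes of these lists lay further from 0 than most of the 33 members, and the examples here were chosen after their values were seen. SEM1 encodes a small lid subunit but is not among the members, and its mean of 0.42 was above that of RPN5. STS1, a nuclear factor that helps to localize the proteasome, had a mean of 0.29. Both were above the reference on 12 of 12 arrays. UMP1 and PBA1, chaperones of core assembly, had means of -0.21 and -0.17 and were below it on all 12, at median signals of 3.25 times background.

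More members were called between the arrays with the sample in Cy5 (array 2) and those with the sample in Cy3 (array 1) than between media. This observation was made after the values had been seen. It compares 6 arrays with 6, where the media have 2 arrays each, so the counts of calls are not like for like. Dye and array number cannot be told apart here. In the same limma fit the term for sample in Cy5 against sample in Cy3 was called for 14 of 33 members, 5 higher and 9 lower in Cy5, beside 20.0% of all probes higher and 17.7% lower. In both directions together, the share of members called was near that of all probes. Of the 14, 4 are core genes and 10 regulatory genes. The largest was RPN9, with a median of 0.039 on the 6 arrays with the sample in Cy3 and -0.23 on the 6 with the sample in Cy5, a difference of -0.26 (limma adjusted p = 0.000547). PRE9 and RPN6 fell by 0.21 each in Cy5, and RPT5 and PRE10 read 0.19 and 0.15 higher in it. RPN5, RPN4 and PRE2 were not called, with differences of -0.0039, 0.071 and 0.020. Since each group holds 1 array of each dye, the term cancels in the comparisons of media. In the deposited log2 table, which the authors had corrected for gene-specific dye bias, the term was called for 8 members, and with arrays centred on the median alone for 29.

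**Figure D5:**
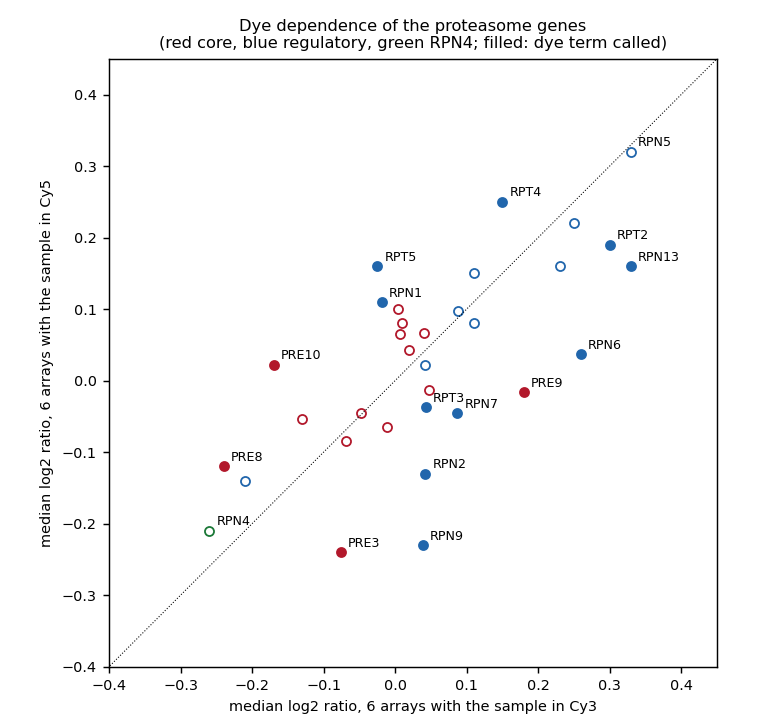
Median log2 ratio to the reference of each of the 33 proteasome genes on the 6 arrays with the sample in Cy5 (vertical axis) against that on the 6 arrays with the sample in Cy3 (horizontal axis). Core genes are red, regulatory genes blue and RPN4 green, filled points are the 14 genes with the dye term called in limma, and the dotted line marks equal values: RPN9 lies far below it and RPN5 on it.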

How the data were processed

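RNA from 12 samples was hybridized with a common reference on 2-colour spotted arrays. The deposited scanner files hold spot intensities (mean and background) from Imagene, not yet normalized. They also deposited log2 ratios, normalized per print tip by loess without background subtraction and corrected for gene-specific dye bias. A deposited table of the authors' own comparisons (log2 ratios and p-values, made with limma 2.12.0) was not used. In the deposited log2 table, array 1 of cho2 medium ran opposite to the scanner values (r = -0.913 over probes, against 0.901 to 0.973 on the other arrays) and was turned. No genome build is named, so no coordinates are given, and promoter and protein sequences were not analysed here.

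Intensities were corrected by normexp with an offset of 50 and normalized by loess on the gene spots (limma 3.58.1, R 4.3.3). The labelled dyes gave the direction, sample over reference, and duplicate spots were averaged. A single limma fit over 12 arrays held the 6 group means and a dye term, with 5 residual degrees of freedom and a prior of 3.29. Two-sided p-values were adjusted by Benjamini-Hochberg over 6388 probes, with a limit of 0.05. The fit was tested on simulated data. The number of arrays limits the precision. Within a set, the array differences of any 2 groups correlated (r = 0.310 to 0.817 over probes), but the array number is also the dye.

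The members and lists were chosen with earlier results of these data known. Single genes were described by rule: RPN4, PRE2, PRE3 and PUP1, the 4 members with the smallest p in a comparison, the 3 highest and 3 lowest means against the reference, and 2 genes of each other list, with other members named as examples of their group. Alternatives changed the background step (none), the normalization (per print tip, or median centring only), the values (deposited log2 ratios), the probes (without the darkest 25%), the spots (duplicates fitted separately), and the model (dye term dropped, replicate block added, 1 set fitted alone, each array left out).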

Additional observations from a re-analysis of the deposited data

How the results depend on the processing

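In the comparisons of media, 0 members were called under every alternative run. Between bur2 and cho2 medium, RPN10 and PRE4 came near the limit in at least 1 alternative. Their differences ran from 0.090 to 0.27 and from 0.071 to 0.26 in the alternatives that left out no array. The core median stayed below the regulatory median against the reference in every alternative, on 12 arrays or on 11 with 1 left out, by -0.13 to -0.12. Keeping duplicate spots apart called 1, 6, 45 and 0 probes in cbf1, npl3, bur2 and cho2 medium, 9 between cbf1 and npl3 medium, 46 between bur2 and cho2 medium and 1308 probes with 3 members between the sets. Between cbf1 and npl3 medium the 2 calls became 0 with loess per print tip, median centring, no dye term or the arrays of the set alone, and 1 with the deposited log2 table or the replicate block, and between bur2 and cho2 medium the deposited log2 table called 3. Median centring moved the members' median to 0.060 in bur2 medium, -0.055 in cho2 medium, 0.11 between them and 0.0098 against the reference, and left 5 members above and 1 below the reference on every array. Between the sets it called 277 probes, and no dye term called 99. The 1 member called between the sets, RPN9, became 0 with the darkest probes left out, without background subtraction or dye term, in the deposited log2 table, and with print-tip loess or median centring (adjusted p 0.0579 to 0.724). The 3 members called with duplicate spots apart were RPN2, RPT2 and RPN4, not RPN9. It stayed called with the replicate block (adjusted p = 0.0349), which called no member in the comparisons of media. The block also called NAS2, ADD66, UBI4, UBR1 and PDR3 between the sets (adjusted p 0.0251 to 0.0444). The array number is also the dye, so pairing and dye cannot be told apart. The cause of these changes was not tested. The dye term was called for 4639 probes and 29 members with median centring and for 922 and 8 in the deposited log2 table.

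Leaving out 1 array at a time gave 0 to 2 probes called in cbf1 medium, 0 to 36 in npl3 medium (36 without array 2 of wild-type medium in set 1), 0 to 25 in bur2 medium (25 without bur2 array 1), 0 to 1 in cho2 medium, 0 to 3 between cbf1 and npl3 medium, 0 to 9 between bur2 and cho2 medium, 0 to 1 for the difference between effects, and 199 to 1288 between the sets, lowest without npl3 array 1 and highest without array 1 of wild-type medium in set 1, where 0 to 4 members were called. The dye term gave 1896 to 2373 probes and 8 to 16 members. The members' median ran from -0.031 to 0.033 in cbf1 medium, -0.033 to 0.042 in npl3 medium, -0.012 to 0.000034 in bur2 medium, -0.012 to 0.028 in cho2 medium, -0.020 to 0.032 between cbf1 and npl3 medium, -0.024 to 0.012 between bur2 and cho2 medium, -0.029 to -0.00033 between the sets and -0.032 to 0.047 for the difference between effects.

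Some differences that passed no limit changed sign. RPN4 in cbf1 medium read -0.0089 with loess per print tip, -0.011 in the deposited log2 table and -0.063 to 0.074 with 1 array left out. In npl3 medium it ran from -0.032 to 0.10 with 1 array left out, reading -0.028 without npl3 array 2, and in cho2 medium from -0.045 to 0.048, with -0.026 without cho2 array 2 and -0.031 with median centring. RPT3 between cbf1 and npl3 medium read -0.0019 with loess per print tip and -0.0034 in the deposited log2 table, PUP2 between bur2 and cho2 medium 0.016 with median centring, and SCL1 in cbf1 medium 0.0025 without cbf1 array 1. With 2 arrays a group, a lone array was assumed to vary like the other groups. The dimmest member, PRE5, stayed in when the darkest probes were left out.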
